A study of Vitis vinifera with 12 samples.

Results

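The binding events of the grapevine transcription factor CARPO on DNA from berry and on DNA from young leaf were compared. All events of both lists entered, 3757 from berry DNA and 14786 from leaf DNA, which makes 18543 of the 44889 events in the 7 lists of the series. The lists were chosen by protein, DNA source and title number, and by no measured value. The method was DNA affinity purification sequencing (DAP-seq), in which a tagged factor made outside the cell retains fragments of purified genomic DNA, and the retained fragments are sequenced. The berry list came from 1 library, titled with CARPO, 500 and berry. The leaf list was made from 2 libraries together, r1 and r2, titled with CARPO, 500 and leaf. In both groups the protein was CARPO (NAC60) with a HALO affinity tag, made in rabbit reticulocyte lysate, and the DNA came from the cultivar Syrah. The titles give no unit for 500. The growth and treatment texts name leaf material for every sample, pooled from fruiting cuttings, so the berry origin rests on the title and source label, and event positions cannot check it.

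NAC proteins are plant transcription factors with a shared DNA-binding domain near the amino terminus, and many bind as dimers to sites around the core CACG. Members of the family act in organ senescence and in fruit ripening, and the series title names CARPO as a regulator of maturation and ripening in grapevine. DAP-seq offers the factor naked DNA. Nucleosomes are therefore absent, while base modifications such as cytosine methylation stay on the fragments. Neither methylation nor the sequence at the events was analysed here.

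An event is a 201 bp interval with a position at its centre, as deposited. Positions are given in the coordinates of the files, whose genome build is not stated, so no gene or motif is assigned to an event. A partner is an event of the other list within 100 bp on the same sequence. The strength of an event is the value deposited for it by the authors, and it served only to rank events within 1 list. There was 1 list per condition, so differences between berry and leaf DNA have no replicate error and no test. Shares carry exact Clopper-Pearson 95% intervals, which treat events as independent and cover counting error only. Sequencing depth is unknown for all libraries, and a missing partner can be an event that was not called.

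Most berry events had a partner in the longer leaf list. A leaf partner was found for 3244 of the 3757 berry events, which sets the background for all berry subsets below at 86.3% (95% interval 85.2% to 87.4%). In the reverse direction, 3347 of the 14786 leaf events had a berry partner, a background of 22.6% (95% interval 22.0% to 23.3%). The berry list was 0.254 times as long as the leaf list, so it could hold partners for only a minority of leaf events. With a −log10 q-value of at least 4 in both lists, the shares moved apart, to 94.7% of 1069 berry events and 13.6% of 7758 leaf events. Here too, the berry events could hold partners for only a minority of the leaf events. The pairing was close to one-to-one, with 3226 pairs in which each event was the nearest of the other. The limit of 100 bp cut few events. The nearest leaf event lay 81 to 100 bp away for 41 berry events and 101 to 120 bp away for 26. For leaf events, the nearest berry event lay at these distances for 74 and 63, with little drop across the limit.

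The lists also differed in how far their events passed the deposited threshold. The median −log10 q-value was 3.05 in the berry list and 4.09 in the leaf list. At least 4 was reached by 1069 berry events (28.5%) and by 7758 leaf events (52.5%). Strength ran from 9 to 6258.4 with a median of 18 in the berry list, and from 15 to 11804.7 with a median of 29 in the leaf list, on scales that are not comparable between lists. When the leaf list was cut to its strongest 3757 events, 60.0% of berry events had a leaf partner and 60.4% of these leaf events had a berry partner.

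Whether an event had a partner followed its strength in both lists, but not at the very top. The berry list was divided into 5 classes of equal size by strength. From the strongest class to the weakest, 96.4%, 97.2%, 91.4%, 82.8% and 63.9% of berry events had a leaf partner, read against the background of 86.3%. The 4 stronger classes differed less among themselves than the weakest class did from the fourth.

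The leaf list showed a steeper course. A berry partner was found for 67.2% of the strongest class of leaf events (95% interval 65.5% to 68.9%), for 25.8% of the second, 11.2% of the third, 6.12% of the fourth and 2.91% of the weakest (95% interval 2.33% to 3.58%). Berry partners of leaf events were thus concentrated among strong leaf events. Berry events with a leaf partner had a median −log10 q-value of 3.23, and those without had 2.51. For leaf events the medians were 9.88 with and 3.54 without a berry partner. Of the 513 berry events without a leaf partner, 30 (5.85%) reached a −log10 q-value of 4, against 1039 of the 3244 with one (32.0%).

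**Figure D1:**
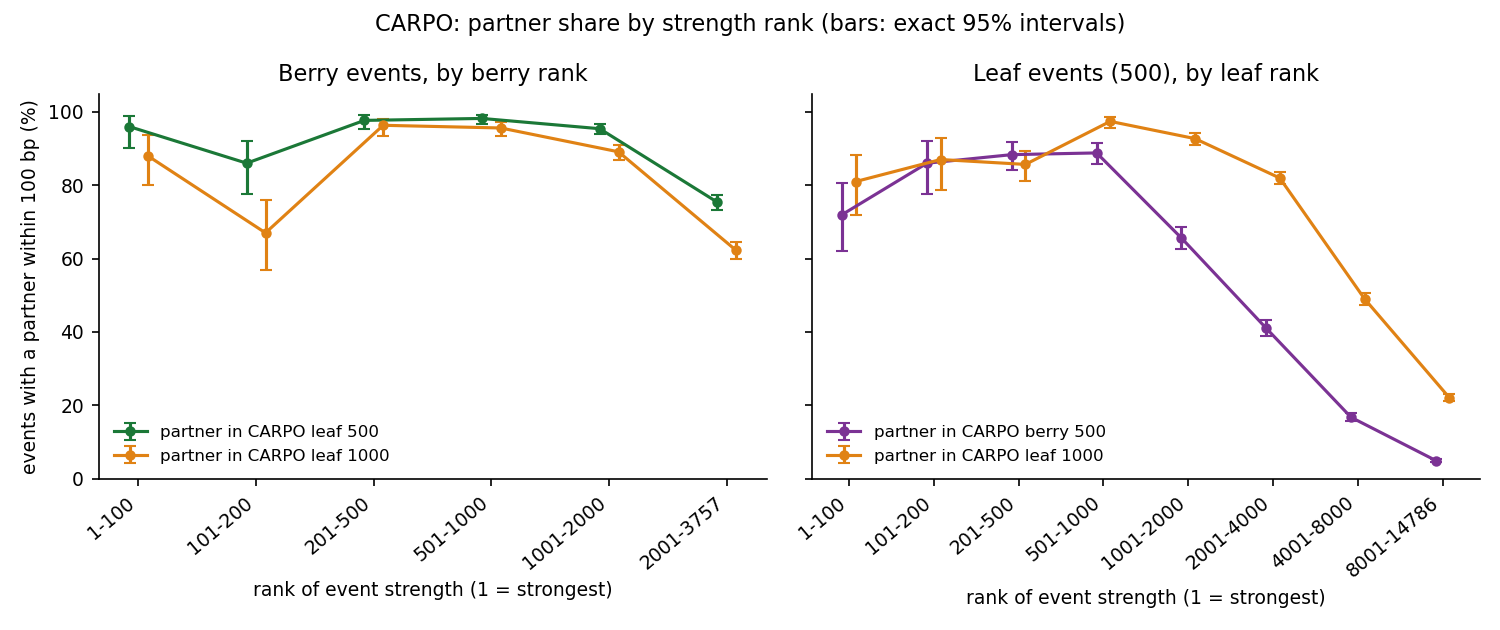
Share of CARPO events with a partner within 100 bp (percent, vertical axis) by rank of strength (horizontal axis, 1 is strongest), for berry events on the left and leaf events labelled 500 on the right; bars are exact 95% intervals. Leaf events ranked 1 to 100 had a berry partner in 72% of cases, below the 88.8% of those ranked 501 to 1000, and the share then fell to 4.94% beyond rank 8000.

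Finer ranges of rank, chosen after the values were seen, showed where partners were missing at the top of each list. A leaf partner was found for 96 of the 100 strongest berry events, at an exact interval of 90.1% to 98.9%, and for 99 of 100 with ranking by p-value. The lowest share among the stronger berry events was 86% for ranks 101 to 200 (95% interval 77.6% to 92.1%), against 97.7% for ranks 201 to 500. The sequence named chr00 held 36 of those 100 berry events and 5 of the 300 that followed. On numbered chromosomes alone, 55 of 64 events at berry ranks 101 to 200 had a leaf partner (85.9%), so the dip was as large without chr00. In the first 1000 ranks of the leaf list the share was lowest at the very top. Of the 100 strongest leaf events 72 had a berry partner (95% interval 62.1% to 80.5%). The share was 86% for ranks 101 to 200, 88.3% for ranks 201 to 500 and 88.8% for ranks 501 to 1000 (95% interval 85.7% to 91.4%). It was 65.6% for ranks 1001 to 2000. With leaf events ranked by p-value in place of strength, 83 of the first 100 had a berry partner.

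A further CARPO list from leaf DNA, titled 1000 and made from 1 library, was set beside both lists. Its background was 77.3% of berry events and 46.9% of leaf events labelled 500 with a partner in it. In turn, 33.2% of its own 9170 events had a berry partner and 75.9% had a leaf partner labelled 500. The dips near the top of each list were present against the list labelled 1000 too. Leaf events at ranks 1 to 100 had a partner at 1000 in 81% of cases, against 97.4% at ranks 501 to 1000. The share was 87% at ranks 101 to 200 and 85.7% at ranks 201 to 500. For berry events it was 67% at ranks 101 to 200, against 96.3% at ranks 201 to 500. All 3 lists held 2784 of the berry events (74.1%). Another 460 (12.2%) had a partner only in the leaf list labelled 500, and 122 (3.25%) only in the leaf list labelled 1000. The remaining 391 berry events (10.4%) had no partner in either CARPO leaf list.

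Berry events that lacked a partner in the leaf list labelled 500 were seldom found in the leaf list labelled 1000. The share was 23.8% of 513 (95% interval 20.2% to 27.7%), against 85.8% of the 3244 with a leaf partner (95% interval 84.6% to 87.0%). This gap was present in every strength class. In the strongest class, 6 of 27 berry events without a leaf partner had a partner in the leaf list labelled 1000 (22.2%, 95% interval 8.62% to 42.3%), against 683 of 725 with one (94.2%). In the weakest class the counts were 49 of 271 (18.1%) without and 322 of 480 (67.1%) with a leaf partner.

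Leaf events without a berry partner had a partner labelled 1000 in most cases only in the strongest and second classes. Of 11439 such events, 4053 had one (35.4%, 95% interval 34.6% to 36.3%, below the background of 46.9%), against 2881 of the 3347 leaf events with a berry partner (86.1%). In the strongest leaf class, 771 of 970 events without a berry partner were found at 1000 (79.5%, 95% interval 76.8% to 82.0%), and so were 1899 of 1988 with one (95.5%). Among the 500 strongest leaf events, however, only 25 of 77 without a berry partner were found (32.5%), against 400 of 423 with one (94.6%). In the second class, 1296 of 2195 without a berry partner were found (59.0%) and 617 of 762 with one (81.0%). In the weakest class, 387 of 2871 without a berry partner were found (13.5%) and 44 of 86 with one (51.2%). There were 7386 leaf events with a partner neither in berry nor at 1000, and their median rank was 10190.5 of 14786.

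**Figure D2:**
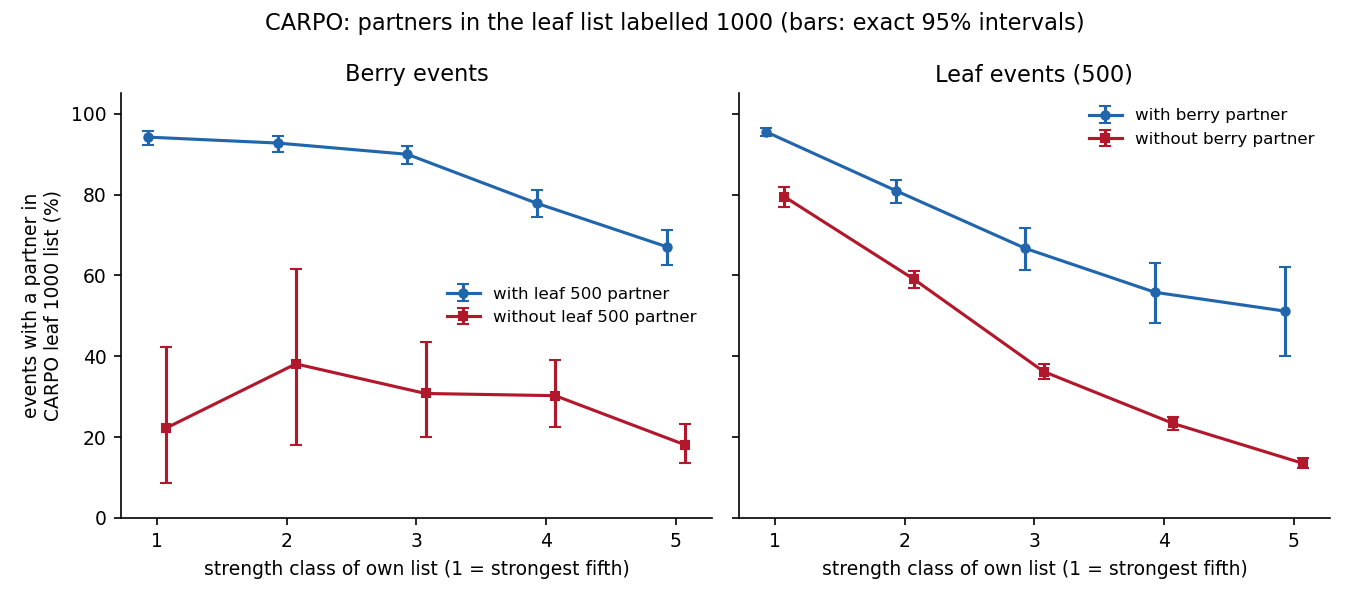
Share of CARPO events with a partner in the leaf list labelled 1000 (percent, vertical axis) by strength class of their own list (horizontal axis, 1 is the strongest), for berry events on the left and leaf events labelled 500 on the right; circles are events with a partner in the other organ's list, squares those without, and bars are exact 95% intervals. In the strongest class 22.2% of berry events without a leaf partner had a partner at 1000, as did 79.5% of leaf events without a berry partner.

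The first 4 ranks of the berry list and of the leaf list fell on the same 4 places, while the leaf event at rank 5 had no berry partner. On chromosome 9 at 20833339, the berry event had a strength of 6258.4 and the leaf event one of 11804.7, both rank 1 and at the same base. On chromosome 11 at 19741323 the berry event had 5018.4, and its leaf partner 2 bp away had 9519.4, both rank 2. On chromosome 5 at 11512456 the berry strength was 3932.6 and the leaf strength 6475, both rank 3. These 3 places also ranked 2, 1 and 9 in the leaf list labelled 1000. On chr00 at 7155534 the berry event had 3677 and the leaf event 5366, both rank 4. The next 2 pairs by mean rank lay on chromosome 9 at 17381113 (berry rank 5, leaf rank 6) and on chromosome 11 at 8240321 (berry rank 8, leaf rank 11). All 6 places had a partner in the NAC03 leaf list too, at ranks between 3 and 14, and none had one in the NAC33 berry list. The NAC33 leaf list labelled 1000 did hold the place on chr00, at rank 5. It also held 17381113 on chromosome 9 at rank 8 and 8240321 on chromosome 11 at rank 15.

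Ranks of partners followed each other. Over all 3244 partners the Spearman correlation of berry and leaf rank was 0.75, given as a description across events. Among the 96 partners of the 100 strongest berry events it was 0.89, and their leaf ranks had a median of 67.5 and reached at most 429. Of these 96 leaf partners, 68 were in the first 100 leaf ranks and 93 in the first 200. Within berry ranks 101 to 500, 501 to 1000, 1001 to 2000 and 2001 to 3757 the correlation was 0.45, 0.32, 0.26 and 0.36. These ranges span much less strength than the first, 18 to 24 at ranks 1001 to 2000 against 274 to 6258.4 at ranks 1 to 100, and a narrow range by itself lowers a correlation. Events of equal strength were ordered by p-value, then by sequence and position, so part of the order within these ranges is arbitrary. The effect of this order on the correlations was not tested. At berry ranks 1001 to 2000 the leaf rank had a median of 2066.5, with quartiles at 1251 and 3468. The widest rank shifts among the 100 strongest were modest. The berry event on chromosome 10 at 16235895 had berry rank 83 (strength 325) and leaf rank 429 (strength 130). Those on chr00 at 10805569 and at 15061848 had berry ranks 57 and 84 and leaf ranks 243 and 235. Among the 100 strongest leaf events, the lowest berry ranks were 182 on chromosome 2 at 7297523 (leaf rank 97), 173 on chromosome 18 at 107545 (leaf rank 99) and 169 on chromosome 8 at 7240586 (leaf rank 92).

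**Figure D3:**
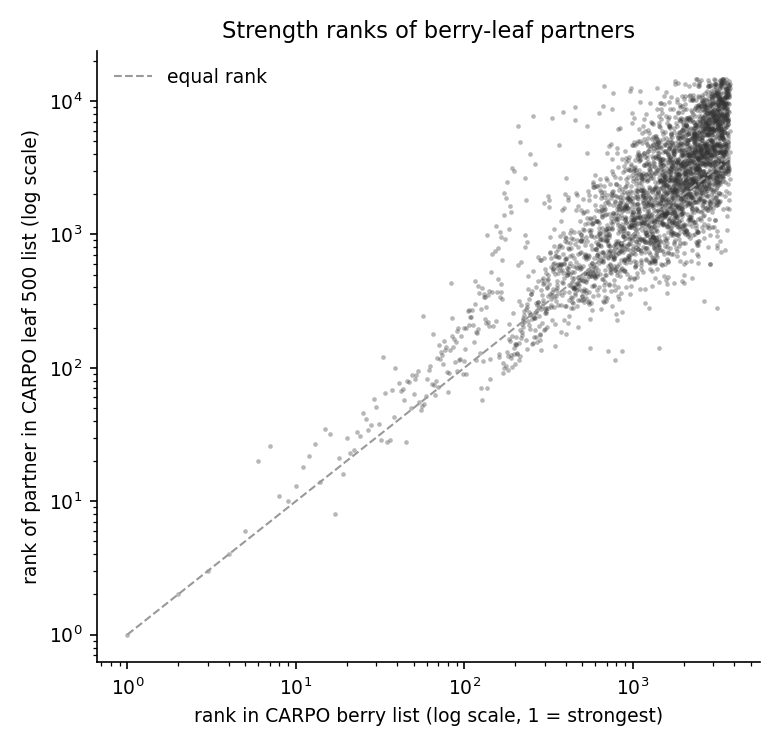
Rank of strength in the berry list (horizontal axis, log scale) against the rank of the nearest partner in the leaf list labelled 500 (vertical axis, log scale); each point is 1 of 3244 partners and the dashed line marks equal rank. The first 4 ranks coincide, and the points spread with rank: partners of berry ranks 1001 to 2000 have a median leaf rank of 2066.5 in a list 3.94 times longer.

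Among the 100 strongest berry events, 4 had no leaf partner. The strongest lay on chromosome 15 at 4089904 (strength 638, rank 40, −log10 q-value 90.1). Its nearest event in the leaf list labelled 500 was 75386 bp away, but the leaf list labelled 1000 held it at rank 29 with a strength of 1050, so it was not particular to berry DNA. The others were on chromosome 18 at 1909494 (rank 61, −log10 q-value 7.37), on chromosome 14 at 12260293 (rank 96, 18.2) and on chr00 at 15090703 (rank 97, 6.16), with the nearest leaf event 2316, 1369 and 385 bp away. None of these 3 had a partner at 1000. All 4 had a partner in the NAC03 leaf list, at ranks between 36 and 96, as did 82 of the 96 with a leaf partner. The next strongest, on chromosome 10 at 16318832 (rank 104), had no partner in any other list.

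The 28 events without a berry partner among the 100 strongest leaf events were spread over 15 sequences, and 1 of them lay on chr00. They lay at 25 separate places when events within 500 bp were joined. Their −log10 q-values ran from 5.38 to the cap of 999 with a median of 90.2. The 72 strong leaf events with a berry partner had a median of 128. In the leaf list labelled 1000 a partner was found for 12 of the 28, against 69 of the 72. In the NAC03 leaf list it was 7 of the 28, against 63 of the 72. No other list of the series held a partner for 10 of the 28.

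Some of these leaf events were strong in both CARPO leaf lists. On chromosome 14 at 30192059 the leaf event had a strength of 3339.9 (rank 9, −log10 q-value 999) and rank 17 at 1000, and the nearest berry event lay 120596 bp away. On chromosome 12 at 7215212 the leaf event had 2854 (rank 12, −log10 q-value 999) and rank 19 at 1000, with a berry event 1358 bp away. These 2 places were thus among the first 20 of both CARPO leaf lists and had no called berry event within 100 bp.

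Others were strong in the leaf list labelled 500 alone among the CARPO lists. On chromosome 9, 3 neighbouring events at 21158565, 21158735 and 21158833 had strengths of 2418.8, 2484.6 and 4413.5 (ranks 17, 15 and 7) and no partner in any other list. The third of these, at 21158833, had a −log10 q-value of 283, and the nearest berry event was 68968 bp away. On chromosome 13 at 12023114 the leaf event had a strength of 5151.2 (rank 5). It had no CARPO partner in berry or at 1000, while the NAC33 events there ranked 1 in the NAC33 berry list and in both NAC33 leaf lists, and the NAC03 event ranked 2. On chromosome 5 at 11512198 the leaf event (strength 1835, rank 25) had no CARPO berry event within 100 bp but lay within 100 bp of the event ranked 2 in the NAC33 berry list. It was 258 bp from the nearest CARPO berry event, the one described above at 11512456.

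Most of the 513 berry events without a leaf partner were weak, with a median rank of 3057 of 3757. The nearest leaf event lay at a median of 8938 bp (quartiles 2205 and 23553), and within 500 bp for 65 of them (12.7%). No other list of the series held a partner for 344 (67.1%). The NAC33 list from the same kind of DNA held 11 of them (2.14%, 95% interval 1.08% to 3.80%), and 139 of the 3244 berry events with a leaf partner (4.28%, 95% interval 3.61% to 5.04%). In the strongest berry class it held 3 of 27 without a leaf partner (11.1%, 95% interval 2.35% to 29.2%). With a leaf partner it held 76 of 725 (10.5%, 95% interval 8.35% to 12.9%). The first count is too small to show whether a difference was present in this class. The NAC33 leaf lists held 12 of the 513 at 500 and 31 at 1000.

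Partners in the other organ went together with partners for the related factor NAC03, whose list came from leaf DNA labelled 500. A NAC03 partner was found for 1586 of the 3244 berry events with a leaf partner (48.9%) and for 33 of the 513 without (6.43%). In the strongest berry class the counts were 582 of 725 (80.3%) and 12 of 27 (44.4%). For leaf events, 1645 of 3347 with a berry partner (49.1%) and 1536 of 11439 without (13.4%) had a NAC03 partner. In the strongest leaf class these shares were 65.9% and 37.1%. The share with a NAC03 partner was thus higher for CARPO places called in both organs, also within the strongest class, and this difference has no test. Strength was not held equal within the strongest leaf class. At leaf ranks 501 to 1000, 444 of 500 events had a berry partner and 388 a NAC03 partner. At leaf ranks 1001 to 2000, the counts were 656 and 485 of 1000. The difference was not particular to NAC03. A partner in the NAC33 leaf list labelled 500 was found for 17.0% of berry events with a leaf partner and 2.34% without. For leaf events with and without a berry partner, these shares were 17.2% and 6.28%.

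The distance between partners peaked at 1 bp. The leaf position lay exactly 1 bp from the berry position in 1356 of 3244 pairs (41.8%), 700 of them with the leaf position higher and 656 with it lower. Only 48 pairs (1.48%) had the same position and 211 (6.50%) lay 2 bp apart. The median distance was 3 bp, and 2675 pairs (82.5%) lay within 25 bp. From the strongest berry class to the weakest, 44.8%, 45.3%, 41.6%, 39.9% and 44.6% of pairs lay within 1 bp, and the median distance was 2, 2, 4, 5 and 3 bp.

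**Figure D4:**
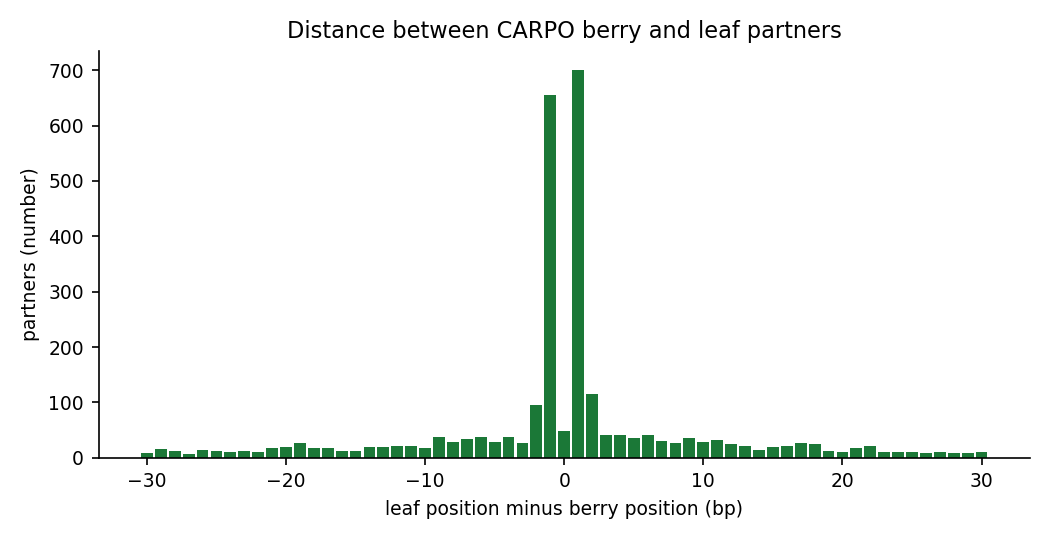
Number of berry-leaf partners (vertical axis) by the leaf position minus the berry position in bp (horizontal axis, shown from -30 to 30). Columns at 1 and -1 bp hold 700 and 656 pairs, while 48 pairs share the same base.

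The shares were similar across the 19 numbered chromosomes. On numbered chromosomes the share of berry events with a leaf partner ran from 79.7% on chromosome 12 to 91.8% on chromosome 9, around the background of 86.3%. The interval for chromosome 12, 71.9% to 86.2%, was the only one of the 19 that did not include the background. The share of leaf events with a berry partner ran from 18.4% on chromosome 12 to 25.3% on chromosome 11. Intervals below the background of 22.6% were found for chromosome 12 (15.3% to 21.7%) and chromosome 4 (16.1% to 21.7%). Chromosome 18 held the most events in both lists, with 355 berry events (9.45% of the list) and 1303 leaf events (8.81%). The sequence chr00 held 138 berry events, of which 124 had a leaf partner (89.9%), and 442 leaf events, of which 125 had a berry partner (28.3%, 95% interval 24.1% to 32.7%). That last interval lay above the background of 22.6%. Among the 100 strongest events, chr00 held 33 in the berry list and 20 in the leaf list, and 32 and 19 of these had a partner. Among the 500 strongest, 68 of 74 berry events on chr00 had a leaf partner (91.9%), against 407 of 426 on numbered chromosomes (95.5%). For leaf events, 61 of 88 on chr00 had a berry partner (69.3%), against 362 of 412 on numbered chromosomes (87.9%).

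**Figure D5:**
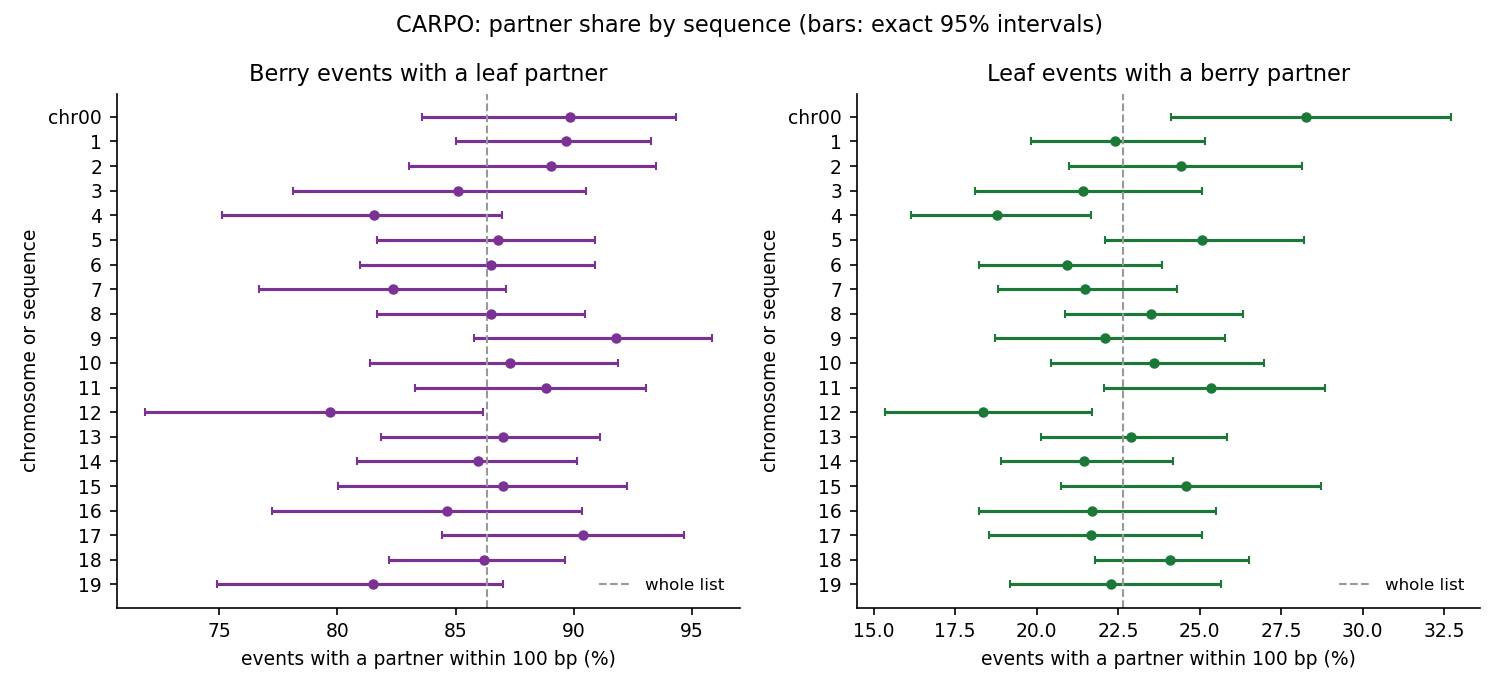
Share of CARPO events with a partner in the other organ's list (percent, horizontal axis) for each sequence (vertical axis), berry events on the left and leaf events on the right; points are shares, bars exact 95% intervals and the dashed line the share over the whole list. Chromosome 12 was lowest in both panels, at 79.7% and 18.4%.

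The NAC33 lists labelled 500 gave the closest comparison, again with 1 berry library and 2 leaf libraries. For NAC33 the background was 49.2% of the 731 berry events with a leaf partner and 6.10% of the 5870 leaf events with a berry partner. Of the 100 strongest berry events, 96 had a leaf partner for CARPO (95% interval 90.1% to 98.9%) and 69 for NAC33 (95% interval 59.0% to 77.9%). Of the 100 strongest leaf events, 72 had a berry partner for CARPO (95% interval 62.1% to 80.5%) and 60 for NAC33 (95% interval 49.7% to 69.7%). These differences between the factors were not tested, as each had 1 list per DNA source. The sets are also unlike, as the 100 were taken from 731 NAC33 and 3757 CARPO berry events. A −log10 q-value of 4 was reached by 98 NAC33 berry events in all, against 1069 for CARPO. The leaf lists searched held 5870 NAC33 and 14786 CARPO events. Within CARPO, 88 of the 100 strongest events labelled 1000 had a berry partner and 95 had a leaf partner labelled 500. A berry partner was therefore missing for 12 of the 100 strongest events labelled 1000 and for 28 of those labelled 500 on leaf DNA. Of the 100 strongest labelled 500 on leaf DNA, 19 also had no partner in the leaf list labelled 1000.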

How the data were processed

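DAP-seq event lists of CARPO on berry and leaf DNA were read as the authors deposited them, 10-column narrowPeak text without a header and with decimal commas. The submitters' processing notes name fastp 0.21.0 and Bowtie2 2.0. File naming points to GEM as the event caller. Genome build, caller settings and caller control are not given in the sources used here. The deposited score in column 5 was not used further. Column 7 was taken as event strength, and columns 8 and 9 as −log10 p-value and −log10 q-value with a cap of 999, inferred from the deposited values. The lists hold no read totals, so depth is unknown. The 3 HALO-GST control samples were not analysed here.

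Event positions (1-based) add columns 2 and 10 and 1. Partners were sought within 100 bp. The search was tested on simulated data. Python 3.11.15, pandas 2.3.3, NumPy 2.4.6 and SciPy 1.17.1 were used. Events named are the 6 partner pairs of best mean rank, the 5 strongest events of each list without a partner (and the 3 strongest on numbered chromosomes), and, among the 100 strongest of each list, the 3 whose partner had the lowest rank. Other events were chosen after their values were seen. The lists compared and the rules were chosen with earlier results of these data known. The planned search for a sequence word was not run, as no genome of the coordinates' build was used here.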

Additional observations from a re-analysis of the deposited data

How the results depend on the processing

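No paired analysis was possible because both leaf replicates went into 1 list and the berry group has 1 library, which also means that no replicate could be omitted. Of 45 alternative values, 16 stayed within the 95% interval of the value reported (list lengths: within 1.5 times) and 29 moved beyond it. For the falls across classes this was the interval of a difference of shares. For the rank correlation it was a band set by the number of pairs. That band treats pairs as independent and served only as a yardstick. The share of berry events with a leaf partner and of leaf events with a berry partner was 71.2% and 18.1% at 25 bp. It was 80.9% and 20.7% at 50 bp, 87.8% and 23.8% at 250 bp, and 87.6% and 23.6% with any overlap of intervals. For events with a −log10 q-value of at least 4 (1069 berry and 7758 leaf events) it was 94.7% and 13.6%. Events above the median strength gave 95.1% and 24.4%. The leaf list cut to the berry length gave 60.0% and 60.4%. With lists of equal length and nearly one-to-one pairing, these last shares are nearly equal by construction. Merging events within 500 bp gave 84.5% for berry. Of 2 alternatives added after the data were seen, the leaf list labelled 1000 in place of 500 gave 77.3% and 33.2%, and mutually nearest partners gave 21.8% for leaf. The fall in share from the strongest to the weakest class, 32.5 percentage points for berry and 64.3 for leaf, became 36.8 and 61.7 at 50 bp and 40.6 and 79.0 with 10 classes. With ranking by p-value it was 21.6 for berry. The rank correlation was 0.77 at 25 bp and 0.54 with ranking by p-value. The share of leaf events without a berry partner found at 1000 was 32.9% at 50 bp and 36.9% at 250 bp. The stricter q-value, the cut at the median strength, the merging and the shortened leaf list leave fewer events by construction. A shorter distance or mutual pairing can only lower the share of events with a partner in the other organ. A longer distance or interval overlap can only raise it. The cause of the other shifts was not tested. Unknown depth limits every list length and share.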

Other observations

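Of the 151 berry events with another berry event within 200 bp, 141 had a leaf partner (93.4%, 95% interval 88.2% to 96.8%), against 86.3% of the whole list. Their median rank was 782 of 3757, and 97.2% of all berry events in the class that holds this rank had a leaf partner. Of the 893 leaf events with another leaf event within 200 bp, 435 had a berry partner (48.7%, 95% interval 45.4% to 52.0%), against 22.6%. Neighbouring leaf events can share 1 berry partner. The median rank of the close leaf events was 5503 of 14786. Among the 100 strongest events, 42 in the berry list and 42 in the leaf list had another event of their own list within 500 bp.

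The list labelled 1000 held 9170 events, of which 2920 (31.8%) had partners in both CARPO lists labelled 500, 126 (1.37%) only in the berry list, 4044 (44.1%) only in the leaf list and 2080 (22.7%) in neither.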
